A study of Mus musculus with 167 samples.

Results

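The 10 genes described here encode enzymes and regulators with which the liver makes fatty acids and triglycerides from carbohydrate: Mlxipl, Srebf1, Acly, Acaca, Fasn, Elovl6, Scd1, Me1, Thrsp and Pnpla3. They were taken by name from a deposited table of 39179 gene IDs, in which each of the 10 was found, and their values were read in every library of mouse liver polyA RNA, 83 from females and 84 from males. All 10 passed the filter on low counts in every comparison. The mice were labelled as strain C57BL/6 and were wild type (WT) or carried a knock-in copy of Htt, in which an expanded CAG repeat causes Huntington's disease, with a repeat of 20, 80, 92, 111, 140 or 175 (lines Q20, Q80, Q92, Q111, Q140 and Q175). Every knock-in mouse was heterozygous, so each still had an unaltered Htt allele, and the repeat length is that of the line's name, not a measurement in each animal. The ages at collection were 2, 6 and 10 months, so genotype and age together define 21 groups. By the labels each group held 4 females and 4 males, except Q80 at 2 months (3 females and 5 males) and Q80 at 10 months (4 females and 3 males). Wild-type mice were littermates and were labelled as housed with Q20 mice.

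De novo lipogenesis converts surplus glucose into fat. Citrate leaves the mitochondrion and is cut to acetyl-CoA, which is carboxylated, built into palmitate, elongated and desaturated, and then esterified to triglyceride. In liver the pathway is switched on by feeding through 2 transcription factors, SREBP-1c, which responds to insulin, and ChREBP, which responds to glucose metabolites. Both bind the promoters of the enzyme genes, and transcription of the pathway also follows the daily feeding rhythm.

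Mlxipl encodes ChREBP and lies on GRCm38 chromosome 5 (135089890 to 135138382, plus strand, ENSMUSG00000005373). Srebf1, which encodes SREBP-1, lies on chromosome 11 (60199089 to 60222581, minus strand, ENSMUSG00000020538). Chromosome 11 also holds Acaca (84129672 to 84401651), which encodes acetyl-CoA carboxylase 1, Acly (100476353 to 100528000), which encodes ATP citrate lyase, and Fasn (120805846 to 120824547), which encodes fatty acid synthase. Elovl6, whose product elongates palmitate, lies on chromosome 3 (129532355 to 129638495). Scd1, which encodes the desaturase that makes oleate, lies on chromosome 19 (44394455 to 44407879). Me1, the cytosolic malic enzyme that supplies NADPH, lies on chromosome 9 (86581371 to 86695953, ENSMUSG00000032418). Thrsp, the thyroid-hormone-responsive lipogenic protein Spot 14, lies on chromosome 7 (97412938 to 97417730). Pnpla3, a lipid droplet protein of the patatin-like lipase family, lies on chromosome 15 (84167837 to 84187236, plus strand, ENSMUSG00000041653).

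The sequences upstream of 5 of these genes are shown because the results below turn on them: Pnpla3, Mlxipl and Me1 rose with repeat length at 6 months, and Srebf1 and Fasn were higher in females at 2 and 6 months. They are bases before a RefSeq transcript start, up to the start or, where a GENCODE exon of the gene begins earlier, up to that exon, written 5′ to 3′ on the gene's strand from RefSeq GRCm38.p6. Capitals mark 3 motifs, each searched on both strands. The E-box is CACGTG, a type of site that helix-loop-helix factors bind. The CCAAT box is read by the factor NF-Y. The motif TCACCC is shared with the core of the sterol response element and was chosen after the sequences had been seen.
Pnpla3 (chr15:84167566-84167815, plus strand): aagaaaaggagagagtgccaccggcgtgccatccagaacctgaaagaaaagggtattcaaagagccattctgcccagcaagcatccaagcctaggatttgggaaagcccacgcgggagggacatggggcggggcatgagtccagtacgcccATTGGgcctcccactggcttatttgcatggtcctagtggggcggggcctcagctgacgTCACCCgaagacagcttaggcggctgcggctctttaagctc
Mlxipl (chr5:135089640-135089889, plus strand, the 1st of 2 listed starts): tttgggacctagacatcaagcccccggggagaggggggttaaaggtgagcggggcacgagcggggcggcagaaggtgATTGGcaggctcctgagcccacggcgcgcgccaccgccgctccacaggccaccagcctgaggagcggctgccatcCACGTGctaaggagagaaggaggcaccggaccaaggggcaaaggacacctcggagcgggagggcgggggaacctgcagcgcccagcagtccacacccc
Me1 (chr9:86695954-86696164, minus strand, the 1st of 2 starts, 211 bases, ended at an exon before the RefSeq start at 86695914): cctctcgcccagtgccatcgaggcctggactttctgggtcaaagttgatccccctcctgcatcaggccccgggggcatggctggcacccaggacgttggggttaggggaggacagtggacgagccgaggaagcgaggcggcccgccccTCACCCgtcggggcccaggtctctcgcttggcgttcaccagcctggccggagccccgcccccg
Srebf1 (chr11:60210472-60210721, minus strand, the 3rd of 3 starts): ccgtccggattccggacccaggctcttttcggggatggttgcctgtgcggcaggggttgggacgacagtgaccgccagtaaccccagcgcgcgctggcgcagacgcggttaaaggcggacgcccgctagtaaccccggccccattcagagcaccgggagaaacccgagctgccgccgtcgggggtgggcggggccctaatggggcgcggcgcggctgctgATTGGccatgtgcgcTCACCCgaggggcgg
Fasn (chr11:120824548-120824797, minus strand): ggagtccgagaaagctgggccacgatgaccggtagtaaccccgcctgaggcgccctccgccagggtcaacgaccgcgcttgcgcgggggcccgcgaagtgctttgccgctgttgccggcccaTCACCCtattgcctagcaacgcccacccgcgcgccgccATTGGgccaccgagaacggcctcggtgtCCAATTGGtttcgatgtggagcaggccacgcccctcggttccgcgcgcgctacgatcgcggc

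RefSeq start windows were matched for 9 of the 10 genes, at 13 starts, and 3 of these windows, of Me1, Elovl6 and Thrsp, were shortened at an exon to 211, 219 and 70 bases. Distances are counted from the RefSeq start. The E-box was in the window of Mlxipl, 98 to 93 bases before the start, and in none of the other 12 windows, and 6.02% of all 32817 mouse windows of this kind held one. A CCAAT box was in 6 of the 13 windows, against 33.8% of all windows. Fasn had 3 CCAAT boxes, of which the plus-strand box at 62 to 58 bases and the minus-strand box at 59 to 55 bases before the start overlap. TCACCC was in 4 of the 13 windows, those of Fasn (128 to 123 bases before the start), Me1 (102 to 97), Pnpla3 (41 to 36) and Srebf1 (15 to 10), against 13.8% of all windows. These are matches of letters in a window and were not measured as binding sites.

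The libraries held between 32025244 and 57151736 counts, with a median of 38663519. Htt, the check of the labels, fell as the repeat lengthened, by 0.27 ± 0.04, 0.39 ± 0.04 and 0.43 ± 0.05 on the log2 scale per 100 repeats (SE, adjusted p = 0.000608, 1.54e-07 and 8.36e-07 with edgeR) at 2, 6 and 10 months. The hepatocyte transcript Alb had a median of 75900 CPM (counts scaled to library size). Adipocytes also run the lipogenic pathway. Of 7 adipocyte markers, Lep was at 0 in 158 libraries, Plin1 in 144, Retn in 120, Adipoq in 77 and Cfd in 69, while Fabp4 (median 4.91 CPM) and Adrb3 (median 7.16 CPM) were at 0 in none. Their sum was highest in the WT female F2 of 6 months, with 170.9 CPM, and the Q175 female F4 of 10 months, with 81.81 CPM, and was at most 32.99 CPM in every other library. The sex label went against the sex-linked transcripts in 1 library, the Q80 male M5 of 2 months, in which both Xist (0.513 CPM) and the Y-linked genes (0 CPM) were low or absent. Its library name holds a code that the Q80 females of that age share and the other Q80 males do not. It was kept as labelled. At 6 months the names of 46 of the 48 knock-in libraries carry another set of sequencing indexes (LB) than the names of the 8 WT libraries (D7), whereas at 2 and 10 months all named libraries carry D7. Many library names carry codes that are mostly shared by mice of the same line and sex, and the labels do not give their meaning. Whether mice that share a code are independent draws is not known. Nothing else in the labels says how replicates were drawn, so p-values measure the spread between these libraries.

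Levels between genes are compared per transcript length. Scd1 was the most abundant of the 10 transcripts with 1310 ± 590.7 FPKM (fragments per kilobase scaled to library size, SD over all libraries), and Pnpla3 the least with 1.15 ± 1.64 FPKM. Thrsp (266 ± 140 FPKM), Mlxipl (148 ± 28.9) and Fasn (122 ± 52.7) followed Scd1. Acly was at 87.9 ± 29.7 FPKM, Srebf1 at 84.3 ± 34.3 and Me1 at 68.2 ± 22.4. Elovl6 (22.4 ± 12.3 FPKM) and Acaca (20.0 ± 5.98) were close to each other. Scd1 was above Thrsp, Me1 above Elovl6 and Acaca above Pnpla3 in all libraries. The order of close neighbours was not stable: Acly was above Srebf1 in 94 libraries and Elovl6 above Acaca in 97, with mean differences of 3.61 FPKM (SD 36.5) and 2.43 FPKM (SD 8.16).

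**Figure D1:**
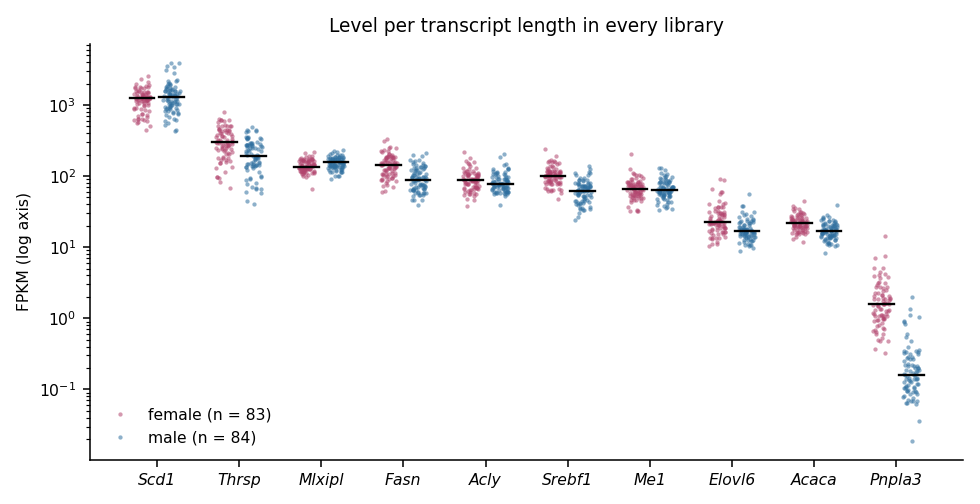
FPKM (fragments per kilobase scaled to library size, log axis) of each of the 10 genes in 83 libraries from females and 84 from males, with 1 point per library and a bar at the median. Scd1 stands highest, from 431 to 3914 FPKM, and Pnpla3 lowest, from 0.019 to 14.2 FPKM.

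The genes also differed in how far they ranged over the libraries. Pnpla3 ran from 0.104 CPM in the Q111 male M1 of 10 months to 60.96 CPM in the Q111 female F2 of the same age. Mlxipl was steadier, from 171.0 CPM in the Q140 female F4 of 10 months to 696.3 CPM in the Q175 male M4 of 6 months. The Q111 female F2 of 10 months was the highest of all libraries in Pnpla3, Me1 (619.2 CPM) and Thrsp (941.9 CPM). Its sum of adipocyte markers was 32.99 CPM against a median of 10.76 CPM in the Q111 females of that age, and the part of this in its levels was not tested.

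The first comparison asks whether the genes follow the length of the CAG repeat among the knock-in lines. At 6 months 3 of the 10 rose with repeat length: Pnpla3 by 0.84 ± 0.24 on the log2 scale per 100 repeats (SE, adjusted p = 0.0274), Me1 by 0.45 ± 0.12 (adjusted p = 0.0176) and Mlxipl by 0.25 ± 0.07 (adjusted p = 0.0182). Each adjusted p is that of edgeR, taken over every gene tested, and 5.67% of all 15498 genes passed 0.05 in this comparison. The slopes of all 10 genes were positive, with a median of 0.25 against 0.00 over all genes. The other 7 did not pass: Srebf1 0.19 ± 0.09 (adjusted p = 0.186), Fasn 0.25 ± 0.12 (adjusted p = 0.208), Thrsp 0.35 ± 0.20, Scd1 0.28 ± 0.18, Acaca 0.13 ± 0.09, Elovl6 0.10 ± 0.13 and Acly 0.07 ± 0.10. In bulk tissue, a change in the amount of RNA per cell and a change in the number of cells of a type cannot be told apart.

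Pnpla3 had the largest difference between Q175 and Q20. In the 4 Q20 females of 6 months it was at 3.77, 2.31, 3.43 and 4.18 CPM, and in the 4 Q20 males at 0.310, 0.874, 0.337 and 0.352 CPM. In Q175 it was at 5.30, 9.33, 14.4 and 7.09 CPM in females and at 0.921, 1.47, 1.09 and 0.995 CPM in males. Within each sex every Q175 library was above every Q20 library, while females of either line were above the males of both. The share of all genes that separate in this way was not counted. Pnpla3, and Me1 and Mlxipl below, were singled out by the test on these libraries, so their separation is not further evidence. The log2 difference was 1.32 ± 0.39, a 2.50-fold higher level in Q175 (edgeR, adjusted p = 0.0241). A share of 10.2% of all 15640 genes passed in this comparison.

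Me1 had 141.2, 148.4, 160.0 and 128.9 CPM in Q20 females and 132.7, 106.0, 190.4 and 197.8 CPM in Q20 males. In Q175 it had 203.6, 191.2, 190.6 and 162.4 CPM in females and 214.8, 263.6, 325.0 and 388.4 CPM in males. The lines again did not overlap within a sex, and the Q175 males M3 and M4 were the highest of the 16. The difference was 0.66 ± 0.19 (adjusted p = 0.0205).

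Mlxipl had 270.5, 327.8, 320.1 and 290.2 CPM in Q20 females and 424.1, 360.2, 434.8 and 448.1 CPM in Q20 males. In Q175 it had 343.9, 405.3, 421.8 and 343.4 CPM in females and 455.8, 612.2, 583.9 and 696.3 CPM in males. Here too the lines were apart within each sex, but the ranges of Q175 females and Q20 males overlapped. The difference was 0.40 ± 0.11 (adjusted p = 0.0174).

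Of the other members, Thrsp had the largest difference between Q175 and Q20 at 6 months, 0.85 ± 0.34, and did not pass (adjusted p = 0.0997). Its Q20 libraries were at 273.9, 356.8, 322.3 and 453.5 CPM in females and 106.0, 54.6, 129.4 and 256.0 CPM in males, and its Q175 libraries at 512.0, 299.5, 608.4 and 486.8 and at 139.9, 250.9, 417.9 and 585.0 CPM. These ranges overlapped in both sexes. Fasn (0.48 ± 0.23, adjusted p = 0.176) and Srebf1 (0.38 ± 0.17, adjusted p = 0.147) did not pass either, and Acaca, Acly, Scd1 and Elovl6 were between 0.13 and 0.20. All 10 differences were positive, with a median of 0.39 against -0.01 over all genes.

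**Figure D2:**
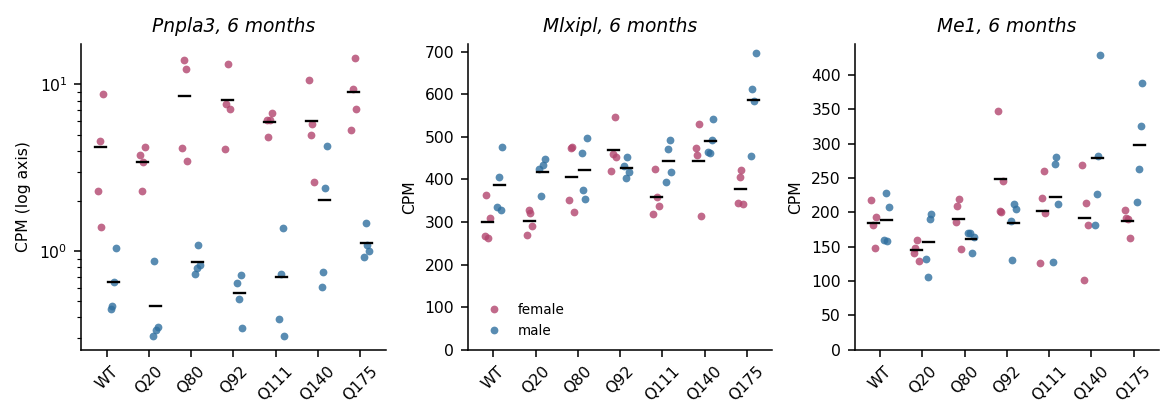
CPM (counts scaled to library size) of Pnpla3 (log axis), Mlxipl and Me1 at 6 months in WT and in the 6 knock-in lines, with 1 point per library, females and males apart, and a bar at the mean of 4. Within each sex the Q175 points lie above all Q20 points in each of the 3 panels, and Pnpla3 reaches at most 4.30 CPM in males and is at least 1.39 CPM in females. The 3 genes are shown because they passed in these libraries.

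The lines between the ends showed parts of the same set, each compared with the same 8 Q20 libraries, so these comparisons are not independent. In Q140, where 4.91% of all genes passed, Pnpla3 rose by 1.52 ± 0.40 (adjusted p = 0.0179), Me1 by 0.62 ± 0.19 (adjusted p = 0.0461) and Mlxipl by 0.37 ± 0.11 (adjusted p = 0.0433). Scd1 was higher there by 0.70 ± 0.29 without passing (adjusted p = 0.152), with 1 library, the male M4, at 19120 CPM. In Q92 (16.6% of all genes) Mlxipl rose by 0.31 ± 0.11 (adjusted p = 0.0478), and Me1 was at 0.50 ± 0.19 (adjusted p = 0.0596 with edgeR). In Q80 (8.24% of all genes) edgeR called 0 members and gave 1 below an unadjusted p of 0.05, Pnpla3 with 1.12 ± 0.39 (adjusted p = 0.0619), which DESeq2 called. In Q111 (0.678% of all genes) edgeR and DESeq2 both called 0 members, with 1 below an unadjusted p of 0.05, Me1 with 0.47 ± 0.19 (adjusted p = 0.174). Pnpla3 means at 6 months were 1.95 ± 1.67 CPM in Q20, 4.68 ± 5.42 in Q80 and 4.28 ± 4.69 in Q92 (SD, n = 8 each). They were 3.32 ± 2.87 in Q111, 4.01 ± 3.29 in Q140 and 5.08 ± 4.96 in Q175. So Q20 was lowest and the longer lines were not in the order of their repeats. Q20 of 6 months had the lowest mean FPKM of all 21 groups in both Pnpla3 (0.462) and Me1 (48.1). WT of that age, with another index set, was at 2.45 ± 2.88 CPM in Pnpla3. In Me1 it was at 186.8 ± 29.6 CPM, against 150.7 ± 31.1 in Q20 and 175.9 ± 27.8 in Q80. In Mlxipl it was at 343.2 ± 71.2 CPM, against 359.5 ± 68.6 in Q20.

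Whether the 6-month results passed depended on particular libraries, and fits with libraries left out also have fewer samples. In males alone Mlxipl (0.48, adjusted p = 0.0347) and Me1 (0.92, adjusted p = 0.04) passed for Q175 against Q20 in edgeR, and in females alone 0 members did, with Pnpla3 at 1.39 (adjusted p = 0.114). Of all genes 780 of 14919 passed in males alone and 533 of 15305 in females alone. With 3 Q20 females left out (F1, F3 and F4), Pnpla3 was at 1.5, Me1 at 0.66 and Mlxipl at 0.32, and 0 members passed (adjusted p = 0.18, 0.18 and 0.241), while the count over all genes fell from 1595 to 2 of 16684. Without those females 0 members also passed in the slope, in Q92 and in Q140, where 23 of 16444, 384 of 16684 and 132 of 16684 genes passed. The slope had 0 members past the threshold without the Q20 libraries (Pnpla3 0.50 ± 0.35; 13 of 15395 genes passed) and without the Q175 libraries (Pnpla3 1.11 ± 0.34, adjusted p = 0.0669; 300 of 15463 genes passed). Leaving out 1 library at a time, Pnpla3 was lost for Q175 against Q20 without the Q175 female F3 (1.15, adjusted p = 0.0587). Me1 was lost without the Q175 male M3 (0.60, adjusted p = 0.0521), and Me1 and Mlxipl without the Q175 male M4 (0.55, adjusted p = 0.0707, and 0.34, adjusted p = 0.0567). The library names of the Q175 female F3 and male M3 carry no index, unlike those of the other knock-in libraries of 6 months. They held 52717178 and 53168791 counts, the most of the Q175 libraries of that age, and the part of this was not tested. In the slope, Pnpla3 was called in 11 of the 16 fits that left out a Q20 or Q175 library and was lost without the Q175 female F3 and without each Q20 female (0.78 to 0.85, adjusted p = 0.0514 to 0.0585). Mlxipl was called in 14, lost without the Q175 male M4 (adjusted p = 0.0532) and without the Q20 female F1 (adjusted p = 0.0501), and Me1 was called in all 16.

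Transcripts of other liver cells moved in the same comparison. Of 8 Kupffer cell and macrophage markers 7 were lower in Q175 than in Q20 at 6 months, with a median of -1 on the log2 scale. With repeat length 7 of the 8 fell. Of all genes 10.2% passed for Q175 against Q20 and 5.67% for the slope. Their summed level was 856.2, 559.7, 834.4 and 989.6 CPM in the Q20 females F1 to F4 and between 412.1 and 457 CPM in Q175 females. F1, F3 and F4, the Q20 females left out in the fits above, had the highest of these sums. Among 6-month females the Q20 median stood apart, at 845.3 CPM, against 425.4 in Q175 and 378.8 in WT. The other lines had 415.3 (Q80), 363.3 (Q92), 442.8 (Q111) and 327.1 CPM (Q140). In males the summed level was 304.7 to 384.9 CPM in Q20. It was 322.7, 217.3, 140.5 and 96.81 CPM in the Q175 males M1 to M4, lowest in M3 and M4, where Me1 was highest. Neutrophil markers were lower in Q175 for 3 of the 4 tested and sinusoidal endothelial markers for 3 of 7. The sum of the adipocyte markers overlapped, with 10.98 to 23.11 CPM in Q20 and 9.23 to 24.72 CPM in Q175. This sum rests mainly on Fabp4 and Adrb3, with medians of 4.91 and 7.16 CPM over all libraries. The other adipocyte markers had medians of at most 0.0242 CPM, so the overlap says little about them. The part of these cells in the results for the lipogenic genes was not tested.

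At 2 months the slopes were small. With edgeR 0 members were called, 0 were below an unadjusted p of 0.05, and DESeq2 and limma called 0, where 0.266% of all genes passed. The slopes ran from -0.25 ± 0.34 for Pnpla3 to 0.06 ± 0.19 for Thrsp, and the median was -0.04. Against Q20, 0 members passed in Q80 (0.0991% of all genes passed), Q92 (0%), Q111 (0%), Q140 (0%) and Q175 (0.258%), with 0 below an unadjusted p of 0.05 in each line with edgeR and 0 called by DESeq2. Pnpla3 was at 3.90 ± 3.55 CPM in Q20 and 5.6 ± 7.91 CPM in Q175 at this age. The SD exceeded the difference, and the fitted difference was 0.15 ± 0.51.

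At 10 months 0 members passed for the slope with edgeR, DESeq2 and limma, 0 were below an unadjusted p of 0.05, and 0.25% of all genes passed. The slopes ran from -0.22 ± 0.38 for Pnpla3 to 0.05 ± 0.20 for Scd1, and 9 of the 10 were negative. Against Q20, edgeR called 0 members in Q80 (0.00637% of all genes), Q92 (3.72%), Q111 (0.962%), Q140 (0%) and Q175 (0.931%), with 3, 2, 0, 4 and 0 members below an unadjusted p of 0.05. DESeq2 called 1 in Q80, Srebf1, and 0 in the other lines. Srebf1 was at 314.3 ± 93.8 CPM in Q20 and 187.6 ± 69.3 CPM in Q80 (n = 8 and 7), a difference of -0.81 ± 0.20 (adjusted p = 0.153 with edgeR and 0.0318 with DESeq2). In Q80 Pnpla3 (-1.53 ± 0.58) and Fasn (-0.91 ± 0.32) did not pass. In Q140 all 10 differences were negative, with a median of -0.42 on the log2 scale and Pnpla3 at -1.56 ± 0.56, and each had an adjusted p of 1.

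Whether the slopes differed between ages was tested as an interaction. From 2 to 6 months edgeR called 0 members, with 4 below an unadjusted p of 0.05, where 0.314% of all genes passed. Those 4 were 1.11 ± 0.43 for Pnpla3 (adjusted p = 0.231), 0.41 ± 0.16 for Me1 (adjusted p = 0.233), 0.39 ± 0.14 for Srebf1 (adjusted p = 0.204) and 0.29 ± 0.09 for Mlxipl (adjusted p = 0.12). From 6 to 10 months edgeR called 0 members with 3 below an unadjusted p of 0.05, and 2.5% of all genes passed. Mlxipl came closest with -0.33 ± 0.10 (adjusted p = 0.0523), followed by Me1 with -0.47 ± 0.20 and Pnpla3 with -1.06 ± 0.46. Between 2 and 10 months 0 members passed, 0 were below an unadjusted p of 0.05, and 0.586% of all genes passed. The slope passing at 6 months and not at the other ages is therefore not shown to differ between ages for any of the 10 genes by this test. DESeq2 and limma were not run on these interactions.

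**Figure D3:**
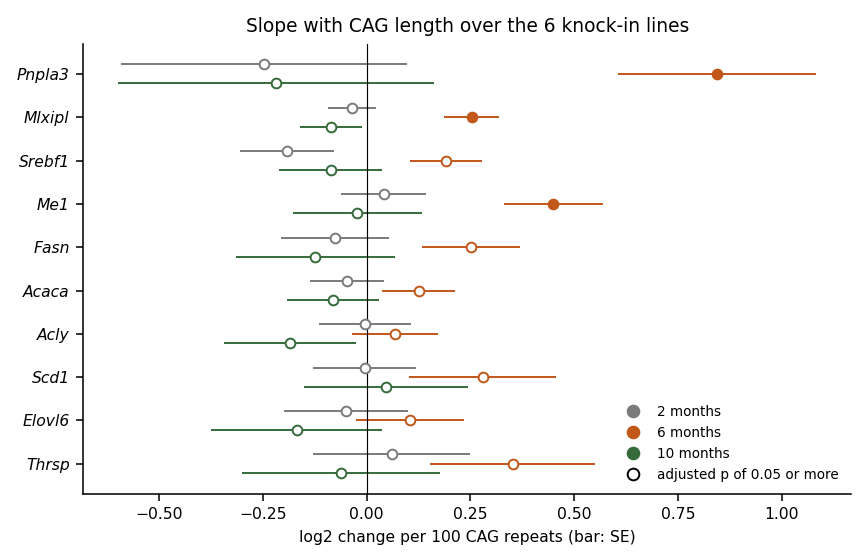
Slope of each of the 10 genes with CAG length (log2 change per 100 repeats, with its SE as a bar) over the 6 knock-in lines at 2, 6 and 10 months, with filled points for an adjusted p under 0.05. Filled points occur at 6 months only, for Pnpla3 (0.84), Me1 (0.45) and Mlxipl (0.25), where the other 7 open points are also above 0.

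The slope was also compared between females and males. At 2 months edgeR called 0 members (0% of all genes), with 1 below an unadjusted p of 0.05, Srebf1, whose slope was higher in females by 0.68 ± 0.21 (adjusted p = 0.899). At 6 months it called 0 (0.213% of all genes), with 1 below an unadjusted p of 0.05, Me1 at -0.51 ± 0.23 (adjusted p = 0.333). At 10 months it called 0 (0.173% of all genes), with 4 below an unadjusted p of 0.05: Mlxipl at -0.41 ± 0.14, Acaca at -0.61 ± 0.20, Acly at -0.88 ± 0.29 and Elovl6 at -0.83 ± 0.40. The lowest adjusted p of these was 0.148. No other tool was run on the slopes by sex.

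Q20 against the wild type asks what the knock-in with the short repeat does. At 2 months (0% of all genes passed) and at 10 months (0.00637%) edgeR, DESeq2 and limma called 0 members, with 0 below an unadjusted p of 0.05. At 6 months, where 31.3% of all genes passed, 1 member did: Srebf1, at 206.0 ± 93.5 CPM in WT and 285.1 ± 117.9 CPM in Q20 (0.44 ± 0.17, adjusted p = 0.0444). At that age the genotype and the index set cannot be told apart. Of 8 Kupffer cell markers 5 were higher in Q20, and 6 of 7 sinusoidal endothelial markers; their part in the result was not tested. Srebf1 did not pass without the same 3 Q20 females (0.24, adjusted p = 0.42) or without the WT female F2, the library highest in adipocyte markers (0.33, adjusted p = 0.136).

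Females and males were compared over all genotypes at each age. Pnpla3 was higher in females by 2.74 ± 0.29 at 2 months, 2.88 ± 0.22 at 6 months and 3.10 ± 0.32 at 10 months on the log2 scale, which is 6.68, 7.37 and 8.59 times the level in males (adjusted p = 8.9e-12, 8.6e-17 and 6.79e-12). Its female libraries ran from 1.70 to 23.6 CPM at 2 months with a median of 6.16, and its males from 0.186 to 5.94 with a median of 1.05. The medians were 5.56 CPM in females against 0.729 in males at 6 months, and 7.79 against 0.711 at 10 months. The sexes overlapped at each age, with 14 of 27, 18 of 28 and 13 of 28 females above the highest male, which at 2 months was the Q80 library M5. Of all genes 57.2%, 60.4% and 56.6% passed between the sexes at 2, 6 and 10 months, so the counts of 7, 7 and 4 members of 10 are near the share of all genes.

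The transcription factor genes went in opposite directions between the sexes. Srebf1 was higher in females by 0.57 ± 0.11, 0.69 ± 0.09 and 0.50 ± 0.10 at 2, 6 and 10 months (adjusted p = 1.49e-05, 5.3e-09 and 5.36e-05). Its 6-month values ran from 150.0 to 677.6 CPM in females (median 369.8) and from 94.98 to 378.8 CPM in males (median 236.1). Mlxipl was lower in females by 0.26 ± 0.05, 0.26 ± 0.06 and 0.23 ± 0.06 (adjusted p = 8.48e-06, 0.000249 and 0.00122). Its median was 378.6 CPM in females against 452.9 in males at 2 months, 355.2 against 450.8 at 6 months, and 318.1 against 374.8 at 10 months. On the deposited FPKM scale the median of all genes is itself shifted towards females, by 0.09, 0.12 and 0.15 on the log2 scale at 2, 6 and 10 months. Mlxipl there was at -0.18, -0.13 and -0.07, or -0.27, -0.26 and -0.22 relative to the median gene, and limma called it at 2 months only, with an adjusted p of 0.0519 and 0.405 at the later ages.

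Among the enzymes, Acaca, Fasn and Elovl6 were higher in females at 2 and 6 months. Fasn was higher by 0.32 ± 0.12 in the youngest mice (adjusted p = 0.0181), by 0.51 ± 0.13 at 6 months (adjusted p = 0.000427), and was 0.37 ± 0.17 at 10 months (adjusted p = 0.0569). Acaca was higher by 0.33 ± 0.08 at both 2 and 6 months and at 0.18 ± 0.10 at 10 months (adjusted p = 0.119). Elovl6 was higher by 0.29 ± 0.12 in the youngest (adjusted p = 0.0387), by 0.53 ± 0.12 at 6 months, and was 0.36 ± 0.19 at 10 months (adjusted p = 0.1). Without the Q80 library M5 the Elovl6 difference at 2 months was lost (adjusted p = 0.0509). Thrsp was higher by 0.74 ± 0.18 at 6 months and 0.56 ± 0.22 at 10 months, and was at 0.26 ± 0.16 at 2 months. Scd1, the most abundant member, was lower in females by 0.30 ± 0.12 at 2 months (adjusted p = 0.0325), and was at -0.21 ± 0.16 and -0.31 ± 0.16 at 6 and 10 months. Me1 and Acly passed at no age, with differences between -0.15 ± 0.09 and 0.07 ± 0.10.

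**Figure D4:**
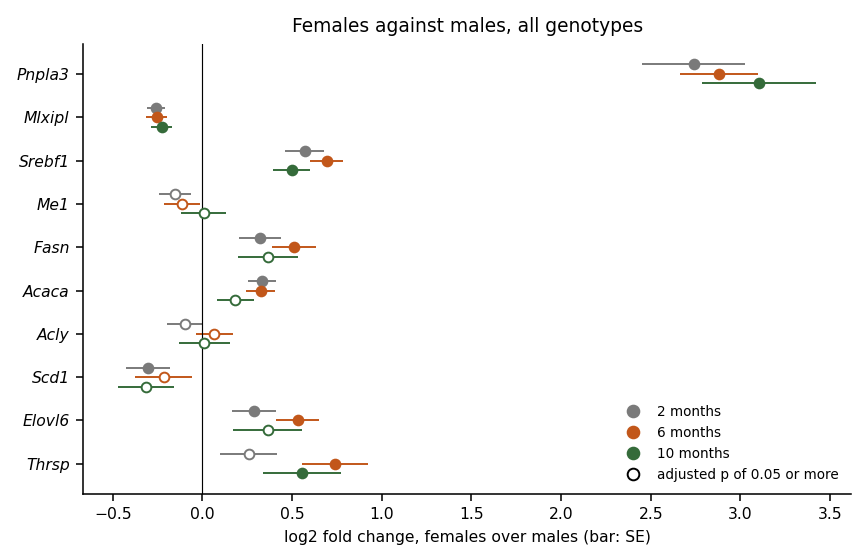
Difference between females and males (log2, females over males, with its SE as a bar) for each of the 10 genes at 2, 6 and 10 months over all genotypes, with filled points for an adjusted p under 0.05. Pnpla3 stands apart at 2.74 to 3.10, Mlxipl lies below 0 at all ages, and Me1 and Acly have open points only.

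Other groups of genes also differed between the sexes, where 57.2%, 60.4% and 56.6% of all genes passed at 2, 6 and 10 months. Of 13 circadian clock genes 8 were higher and 5 lower in females at 2 and at 6 months, and 7 and 5 at 10 months. Arntl, which encodes BMAL1, was at -2.38 ± 0.27, -2.67 ± 0.25 and -1.83 ± 0.23, and Per3 at 1.54 ± 0.14, 2.18 ± 0.16 and 1.44 ± 0.16. Of 15 genes that fasting induces in liver 8, 9 and 7 were higher in females at 2, 6 and 10 months and 0, 0 and 1 lower. Of all genes 4478 of 15137, 4857 of 15640 and 4671 of 15689 were higher in females at these ages. Lower in females were 4173, 4592 and 4208, so all genes were split more evenly than this list. Cyp4a14 was higher by 1.63 ± 0.23, 1.88 ± 0.19 and 1.92 ± 0.25. All 8 Kupffer cell markers were higher in females at 2 and 6 months and 7 at 10 months. The labels used here give no hour of collection or feeding state, and the part of these groups in the sex differences of the lipogenic genes was not tested.

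Age was compared among the knock-in libraries with genotype and sex in the model. From 2 to 10 months, which share the index set, Mlxipl fell by 0.20 ± 0.05 (adjusted p = 0.000555), and the other 9 did not pass, where 21.2% of all genes did. In the WT libraries alone Mlxipl fell by 0.43 over the same interval (adjusted p = 0.000697). From 2 to 6 months 5 members passed, with 55.3% of all genes: Srebf1 (0.34 ± 0.07) and Fasn (0.30 ± 0.09) were higher at 6 months, and Pnpla3 (-0.49 ± 0.20), Thrsp (-0.49 ± 0.14) and Me1 (-0.25 ± 0.08) lower. With the replicate number as a block Pnpla3 did not pass (-0.37, adjusted p = 0.0961). From 6 to 10 months 4 members passed, with 52.5% of all genes: Pnpla3 (0.67 ± 0.24) and Elovl6 (0.38 ± 0.12) were higher at 10 months, and Mlxipl (-0.25 ± 0.05) and Srebf1 (-0.34 ± 0.08) lower. In the knock-in lines age and index set cannot be told apart wherever 6 months enters. In the WT libraries, which carry D7 at all ages, Srebf1 was at -0.36 and Fasn at -0.22 from 2 to 6 months, the opposite sign, without passing (adjusted p = 0.418 and 0.707).

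The rest of the pathway was read from lists that do not overlap the 10 members. For Q175 against Q20 at 6 months, where 10.2% of all genes passed, 1 of 19 other genes of fatty acid and triglyceride synthesis was higher and 0 lower. It was Slc25a1, the mitochondrial citrate carrier (0.21 ± 0.06, adjusted p = 0.029), and the list's median was 0.12. Of 12 genes of glucose use and NADPH supply 3 were higher and 0 lower, among them Tkt (0.24 ± 0.07) and Taldo1 (0.20 ± 0.06), both of the pentose phosphate pathway. Of 15 regulators of SREBP-1c and ChREBP 0 were higher and 1 was lower, the insulin receptor Insr (-0.31 ± 0.06, adjusted p = 0.000985). Slc25a1 and Tkt rose with repeat length over the 6 lines by 0.14 ± 0.04 per 100 repeats each (adjusted p = 0.0166 and 0.0358), and Insr fell by 0.18 ± 0.03. These share the 8 Q20 libraries with the results above, and the lists were tested with edgeR only. With the 3 Q20 females named above left out, 2 of all genes passed for Q175 against Q20 and 23 for the slope, so no more than that number of the list calls in each comparison, here and in the next paragraph, pass without them.

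Of 17 targets of SREBP-2, the factor of cholesterol synthesis, 0 passed for Q175 against Q20 at 6 months with edgeR and 2 were below an unadjusted p of 0.05, the first of them Mvd (0.63 ± 0.26, adjusted p = 0.105). Of 14 lipid droplet and lipolysis genes tested 0 passed and 4 were below an unadjusted p of 0.05, with Plin5 at 0.54 ± 0.19 (adjusted p = 0.0593) and Cideb at 0.18 ± 0.06 (adjusted p = 0.0571). Of 15 fasting-induced genes Acot1 was higher (1.11 ± 0.34, adjusted p = 0.0274), and Cpt1a (-0.39 ± 0.10, adjusted p = 0.00878) and Irs2 (-0.71 ± 0.23, adjusted p = 0.0351) were lower. Of 13 clock genes 0 passed and 0 were below an unadjusted p of 0.05, with Nr1d2 at -0.25 ± 0.13 (adjusted p = 0.222). Between the sexes 7 of the 19 other synthesis genes were higher and 7 lower in females at 6 months, where 60.4% of all genes passed. The elongase gene Elovl3 was at -6.35 ± 0.24 and the desaturase gene Fads1 at 0.59 ± 0.04. Of the 17 SREBP-2 targets 4, 11 and 7 were higher in females at 2, 6 and 10 months and 2, 0 and 1 lower. The shares of all genes that passed in either direction were 57.2%, 60.4% and 56.6%. Insig2, which retains SREBPs in the endoplasmic reticulum, was lower by 1.24 ± 0.10, 1.41 ± 0.09 and 1.28 ± 0.09.

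The 10 genes varied together between mice of the same group and sex. After removal of the mean of each genotype, age and sex, all 45 pairs had a positive Pearson correlation of log2 CPM over all libraries, with a median of 0.432. Of these, 44 had an adjusted p under 0.05 by a permutation test with 100000 resamples, adjusted over 75 relations. The smallest p this test can give is 1e-05. The residuals were permuted freely over all libraries although the means had been removed, so permutation p-values here and below are somewhat too small. This matters most for weak relations, such as Mlxipl with Srebf1 (r = 0.177, adjusted permutation p = 0.0266). Libraries share their depth scaling and the composition of the tissue, so the correlations describe these libraries. The highest was that of Fasn and Acly (r = 0.834, Spearman's rho = 0.793, adjusted permutation p = 1.83e-05), which was 0.834, 0.832 and 0.837 at 2, 6 and 10 months. Without the 2 libraries farthest from the median it was 0.824. Acaca with Elovl6 (r = 0.814, rho = 0.804) and Acly with Elovl6 (r = 0.803, rho = 0.777) were next. The lowest was that of Mlxipl and Scd1 (r = 0.113, adjusted permutation p = 0.163). Median correlations were 0.439, 0.362 and 0.552 at 2, 6 and 10 months.

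**Figure D5:**
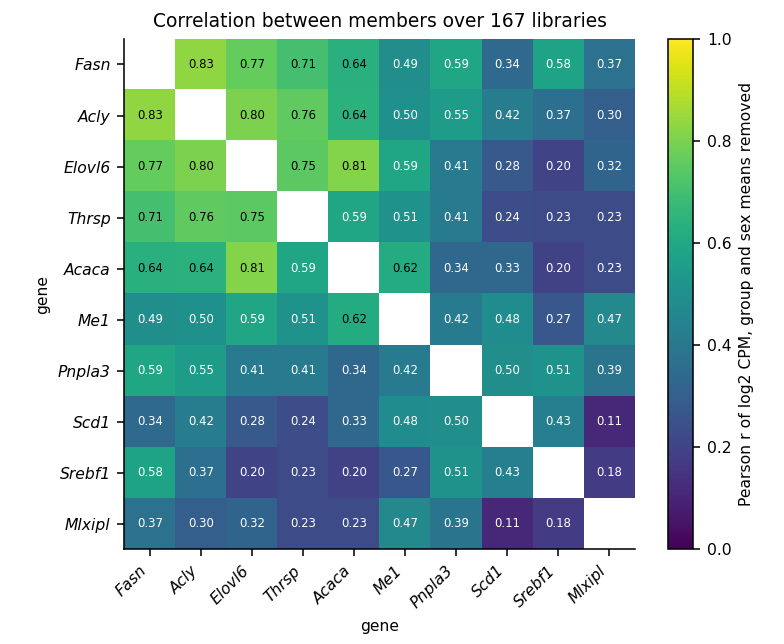
Pearson correlation of log2 CPM between each pair of the 10 genes over all libraries, after the mean of each genotype, age and sex was removed, with the value in each cell. Fasn, Acly, Elovl6, Thrsp and Acaca form the block of high values, up to 0.83, and Mlxipl has the lowest, down to 0.11 with Scd1.

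The genes differed in how closely they followed the rest. The median correlation of a gene with the other 9 was 0.59 for Elovl6, 0.587 for Fasn, 0.586 for Acaca, 0.55 for Acly, 0.512 for Thrsp, 0.495 for Me1, 0.416 for Pnpla3 and 0.34 for Scd1, and it was lowest for the factor genes Mlxipl (0.301) and Srebf1 (0.273). Among all 16234 genes compared, the 3 nearest to Acly were Fasn, Elovl6 and Thrsp. Fasn was followed by Acly, Elovl6 and Slc25a44 (0.725), and Slc25a44 was also the nearest to Thrsp (0.768). Among the 3 nearest to Acaca were Elovl6 and Ubr2 (0.712). Srebf1 was nearest to Mid1ip1 (0.644), Kank2 (0.622) and Smad6 (0.613), and Mlxipl to Kctd6 (0.546), Pqlc1 (0.537) and Slc6a13 (0.508). Me1 was nearest to Gbe1 (0.721), Tkt (0.678) and Rdh16 (0.657), Scd1 to Pltp (0.735), Tlcd1 (0.712) and Slc44a1 (0.705), and Pnpla3 to Chrna4 (0.614), Pgd (0.594) and Fasn (0.587).

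Each member was also set against a gene of the clock and a gene of fasting. Nr1d1, which encodes the clock repressor REV-ERB alpha, was negatively correlated with 6 members past the threshold. The strongest was Elovl6 (r = -0.589, rho = -0.55, -0.566 without the 2 farthest libraries, adjusted permutation p = 1.83e-05), followed by Acly (-0.489) and Thrsp (-0.47). For Elovl6 it was -0.758 in females and -0.193 in males, and the difference between the sexes was not tested. Igfbp1, which insulin represses and fasting induces, was weakly correlated with 4 members, positively with Acaca (0.292), Elovl6 (0.24) and Acly (0.188) and negatively with Srebf1 (-0.186). On FPKM the relation with Acly did not pass (0.135, adjusted permutation p = 0.0964).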

How the data were processed

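PolyA RNA from flash-frozen mouse liver was sequenced on HiSeq instruments, per the labels' protocols. The authors deposited expected counts and FPKM values per gene and library, made before deposit by steps that the labels do not name. CASAVA 1.8.2 is named in the submitters' processing notes. For aligner, quantifier, build and annotation, none is stated in the sources used here, so gene positions were taken from the GRCm38 reference. Of the deposited count values 14.1% were not whole, and all were rounded. Counts were tested with edgeR 4.0.16 (R 4.3.3; filterByExpr, TMM scaling, quasi-likelihood test), within each age over all genotypes with sex as a covariate, and with Benjamini-Hochberg adjustment over all genes at 0.05. Levels are TMM-scaled CPM, and log2 CPM used a prior count of 2. The slope is per 100 repeats over the knock-in lines. DESeq2 1.42.0 and limma 3.58.1 on log2 (FPKM + 0.1) were alternatives, the latter on the authors' deposited FPKM. The count script was tested on simulated data.

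Groups were taken from the labels, and 0 table columns belonged to no sample. The 10 members were all named, and of the other lists up to 4 genes past the threshold with the lowest p, or else up to 2. For each member the 3 genes with the highest Pearson r were named, except a few genes that are not reported here. The members and all lists were chosen with earlier results of these data known, so no list is independent evidence. Correlations used residuals from the means of group and sex, 75 relations and a permutation test of 100000 resamples. Further alternatives were another normalization, no filter, each sex alone, a replicate block and libraries left out. Marker lists for other cell types were read in the same fits.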

Additional observations from a re-analysis of the deposited data

Results flagged for a closer look

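The 210 sets of libraries formed by a gene and a group were checked with Dixon's test on log2 CPM. In 7 of them the gap between 1 end library and its nearest neighbour was past the 95% limit. The log scale widens gaps at the low end. The levels below are in CPM, on which the check was not run. For values from 1 normal population chance alone gives about 1 in 20 such sets. Each set here mixes females and males, which differ in several of the genes, so that rate is only a guide. Mlxipl had 3 of them: the Q140 female F4 at 6 months with 314.1 CPM (the others at 456.7 to 540.7), the Q140 female F4 at 10 months with 171.0 CPM (290.0 to 454.2), and the Q92 female F3 at 6 months with 545.6 CPM (403.4 to 459.6). Me1 had 2, both low and both at 2 months: the Q140 female F1 with 97.07 CPM (190.5 to 345.9) and the Q80 female F2 with 104.8 CPM (223.0 to 303.0). Acly was high in the Q175 female F3 of 6 months with 515.2 CPM (335.2 to 408.1). Thrsp was low in the Q92 female F3 of 2 months with 84.49 CPM (256.7 to 617.6). All 7 libraries were from females.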

How the results depend on the processing

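For Q175 against Q20 at 6 months the count of members past the threshold went from 3 to 0 in females alone and to 0 when 3 Q20 females (F1, F3, F4) were left out, and it was 1 to 3 with 1 library left out at a time. For the slope at 6 months it went from 3 to 0 in females alone, without the Q20 libraries, without the Q175 libraries and without those 3 females, and was 1 to 3 with 1 library left out. Leaving out those females also took Q92 from 1 to 0 and Q140 from 3 to 0 against Q20. For Q20 against WT at 6 months the count of 1 became 0 with DESeq2's size factors in edgeR (Srebf1 0.42, adjusted p = 0.0523), 0 without a filter, 0 without the 3 females, 0 without the WT female F2, and 2 with limma. DESeq2 gave 1 in place of 0 for Q80 at 6 and at 10 months, and 2 in place of 1 for Q92 at 6 months. In WT alone the age counts were 1 in place of 5 from 2 to 6 months and 0 in place of 4 from 6 to 10 months, and 3 results changed sign: Srebf1 (-0.36) and Fasn (-0.22) from 2 to 6 months and Srebf1 (0.35) from 6 to 10 months. WT alone, each sex alone and the fits with libraries left out have fewer samples. The causes of these changes were not tested. Leaving out libraries for Q175 against Q20 at 2 and 10 months gave 0 to 0. Apart from single libraries left out, 92 member counts stayed within 1.5 times of the main count and the 18 above did not.

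The labels' replicate numbers are not taken to pair the samples: the median correlation of same-numbered libraries was -0.0132, 0.0301 and 0.00666 at 2, 6 and 10 months. The best match had the same number in 11 of 56, 24 of 56 and 12 of 55 libraries. With the replicate block no member count moved by over 1.5 times. From 2 to 6 months it went from 5 to 4, with Pnpla3 lost (-0.37, adjusted p = 0.0961). The block could not be fitted for sex. On FPKM the correlation of Mlxipl and Scd1 passed (0.177) and those of Mlxipl and Thrsp (0.148) and of Acly and Igfbp1 (0.135) did not. Fasn had the widest spread of the FPKM to CPM ratio (0.105 to 0.291), and depth limits Pnpla3, at 0.104 CPM in its lowest library.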

Other observations

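Other lists were read for age in the knock-in libraries between 2 and 10 months, which share an index set. Of 15 fasting-induced genes 8 were lower at 10 months, among them Acot1 (-0.55), Angptl4 (-0.44) and Cyp4a10 (-0.46), which act in fatty acid handling. Of 14 lipid droplet genes 2 were higher and 1 lower, and of 15 regulators 1 was higher and 3 lower. Cidea (4.04) and Cidec (0.998) were the higher droplet genes, and Pparg (0.31), a nuclear receptor of fat storage, the higher regulator. The adipocyte transcripts Adipoq (3.63) and Cfd (3.24) were higher at 10 months too, and their part in these differences was not tested. Both were near the floor, with medians of 0.0203 and 0.0242 CPM over all libraries and no counts in 77 and 69 libraries. At 10 months the sum of adipocyte markers reached 81.81 CPM in the Q175 female F4 and 32.99 CPM in the Q111 female F2. Group medians of this sum at 10 months lay between 9.20 and 15.72 CPM, so a general rise is not shown. Of 17 SREBP-2 targets 0 passed with edgeR and 0 were below an unadjusted p of 0.05. Where 21.2% of all genes passed, 1 of the 10 lipogenic genes did, Mlxipl.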
